A study of Homo sapiens with 9 samples.

Results

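The 7 genes described here (SESN2, GDF15, BBC3, GADD45A, PMAIP1, TNFRSF10B and CDKN1A) are p53 targets that the stress factors ATF4 or CHOP can also activate. They were chosen by name, for these 2 known modes of control, out of 56865 genes with summed read counts. All 7 were among the 13914 genes that passed the filter on low counts and were tested.

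Cultured cells labelled BxPC3, a pancreatic adenocarcinoma line, were profiled by poly(A)-selected RNA sequencing in 9 libraries. The groups were 3 libraries of cells given MS172, 3 of cells given PK9328 and 3 of cells given the vehicle DMSO, and every library carries the genotype label p53Y220C/-. The treatment protocol gives 5 µM and 6 h, but it names the second compound MS78 where the titles name MS172, so the dose and time of MS172 rest on a text that uses another name. The series design names the comparison of MS172 with DMSO, and PK9328 is set against the same DMSO libraries and against MS172. PK9328 is known as a ligand of the p53 mutant in the genotype label, and the labels do not say what MS172 binds.

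p53 is a transcription factor that stress signals stabilise, and its targets halt the cell cycle, repair DNA or start apoptosis. ATF4 is made when stress kinases phosphorylate the initiation factor eIF2α; it raises genes of amino acid supply and also DDIT3, which encodes CHOP, a factor that promotes cell death under lasting endoplasmic reticulum stress. Several genes answer to both routes, so a rise in one of them does not by itself name the factor behind it.

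The libraries held 24077353 to 28031886 estimated reads. Whether replicates came from separate cultures is not in the labels. The p-values therefore cover the spread among these libraries, which may be technical. Every PK9328 library had shorter fragments (249.5 to 263 bases) than any MS172 library (274 to 293 bases) or DMSO library (281 to 289 bases), and a fit with fragment length as a covariate (the covariate below) was run as an alternative. Of 10 ductal and epithelial markers, 4 (EPCAM, CDH1, KRT7 and GATA6) were under 1 CPM (counts per 1000000 reads) in every library, while KRT8, KRT18 and KRT19 averaged 732, 785 and 311 CPM with DMSO. Of 10 mesenchymal markers, 5 were under 1 CPM in every library, and VIM averaged 9391 CPM with DMSO. The summed ductal markers ran from 2625 to 2788 CPM with MS172, 2011 to 2092 CPM with PK9328 and 2157 to 2325 CPM with DMSO, and the summed mesenchymal markers from 12331 to 12857 CPM with MS172, 9902 to 10155 CPM with PK9328 and 11699 to 11885 CPM with DMSO. The part of these differences in the results below was not tested. The 5 acinar and endocrine markers were at 0, the 3 endothelial markers were under 1 CPM, and the 4 leukocyte markers summed to 18.8 to 24.8 CPM. SMAD4, reported as deleted in BxPC3, lay between 51.5 and 64.1 CPM, so the cells are called here by their label only, and CDKN2A, also reported as deleted, was at 0.

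The compounds did not move the 7 genes alike. With PK9328, all 7 rose against DMSO. With MS172, 4 rose (GDF15, BBC3, TNFRSF10B and CDKN1A), and SESN2, GADD45A and PMAIP1 did not pass the test. Set against PK9328 directly, MS172 gave more GDF15 RNA, less SESN2, GADD45A, PMAIP1, BBC3 and CDKN1A RNA, and a TNFRSF10B level that did not differ at the threshold.

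A change was called where the Benjamini-Hochberg adjusted p of edgeR's quasi-likelihood test, over all 13914 genes, was under 0.05. MS172 raised 4 of 7 members against 17.9% of all genes tested, and lowered 0 of 7 against 17.2%. PK9328 raised 7 of 7 against 7.98% and lowered 0 of 7 against 7.48%. No member was lower than with DMSO at an unadjusted p under 0.05, or by DESeq2, with either compound. Between the compounds, 1 of 7 members was higher with MS172 against 23.3% of all genes, and 5 of 7 were lower against 24.4%. With the covariate 2 of 7 were lower (SESN2 and GADD45A), and 2474 genes changed in all, against 6641 without it. The 3 MS172 libraries all stood above the 3 DMSO libraries for 4 of 7 members (22.0% of all genes) and below them for 1, SESN2 (22.7%). For PK9328 all 7 members stood above (15.9%) and 0 below (15.4%). MS172 libraries stood above PK9328 libraries for 1 member (26.3%) and below for 4 (29.1%). The median log2 fold change of the members was 0.28 with MS172 and 0.72 with PK9328, where all genes had medians of -0.02 with MS172 and 0.00 with PK9328. In bulk RNA, fewer cells that carry a transcript and less of it per cell cannot be told apart. The comparisons with DMSO share their 3 DMSO libraries, so the values of each gene are given side by side.

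**Figure D1:**
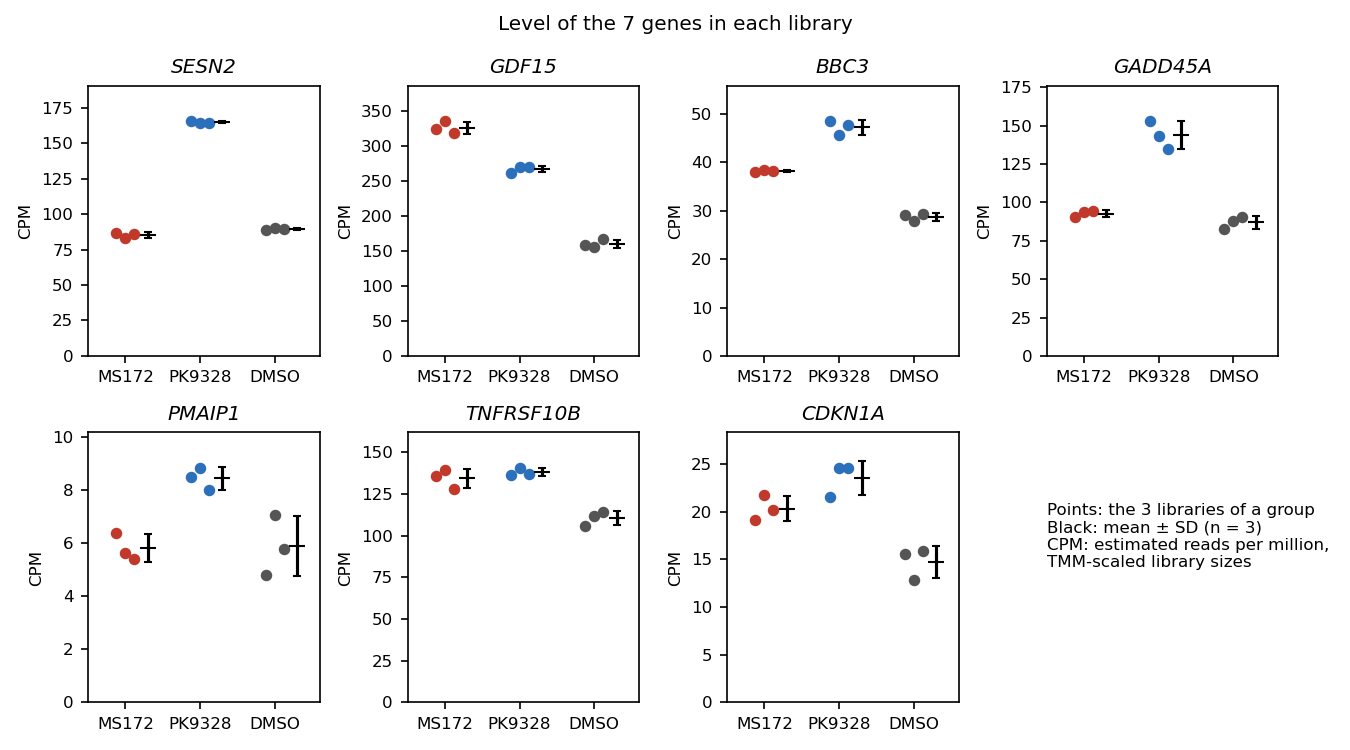
Level of each gene in each of the 9 libraries, in CPM scaled by TMM factors on the vertical axis, with MS172, PK9328 and DMSO from left to right; coloured points are libraries and the black marks beside them the mean ± SD of 3. PK9328 libraries stand above DMSO libraries in every panel, and SESN2 sits near 165 CPM with PK9328 against 85.3 CPM with MS172 and 89.5 CPM with DMSO.

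For 4 of the genes (SESN2, BBC3, PMAIP1 and CDKN1A), part of the 250 bases upstream of the transcription start is shown. RefSeq promoter windows (GRCh38.p14) were searched for 5 of the 7 genes, namely these 4 and GDF15. GADD45A was not matched, and TNFRSF10B was left out of the search. The 4 are the genes whose window held a stretch of at least 50 bases outside annotated exons, whatever their response to the compounds. Each stretch is part of the 250 bases upstream of the RefSeq start, outside annotated exons, written 5′ to 3′ on the gene's own strand. Capitals mark matches to a searched motif on either strand. The SESN2 stretch is chr1:28259268-28259517 on the plus strand, and the BBC3 stretch is chr19:47232767-47232917 on the minus strand. The PMAIP1 stretch is chr18:59899746-59899947 and the CDKN1A stretch is chr6:36678464-36678657, both on the plus strand. Relative to the start, each stretch begins at -250, and they end at -1 (SESN2), -100 (BBC3), -49 (PMAIP1) and -57 (CDKN1A).
SESN2: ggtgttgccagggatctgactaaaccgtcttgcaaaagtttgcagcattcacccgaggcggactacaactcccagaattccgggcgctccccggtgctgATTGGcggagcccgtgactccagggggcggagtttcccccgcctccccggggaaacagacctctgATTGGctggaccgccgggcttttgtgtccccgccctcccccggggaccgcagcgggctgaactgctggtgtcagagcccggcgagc
BBC3: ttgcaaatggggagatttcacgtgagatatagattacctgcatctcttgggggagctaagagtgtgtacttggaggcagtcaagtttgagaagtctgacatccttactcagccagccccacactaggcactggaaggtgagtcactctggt
PMAIP1: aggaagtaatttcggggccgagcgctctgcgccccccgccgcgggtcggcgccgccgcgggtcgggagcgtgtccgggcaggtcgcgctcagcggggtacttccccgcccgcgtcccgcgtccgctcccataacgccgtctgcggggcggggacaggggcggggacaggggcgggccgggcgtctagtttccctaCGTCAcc
CDKN1A: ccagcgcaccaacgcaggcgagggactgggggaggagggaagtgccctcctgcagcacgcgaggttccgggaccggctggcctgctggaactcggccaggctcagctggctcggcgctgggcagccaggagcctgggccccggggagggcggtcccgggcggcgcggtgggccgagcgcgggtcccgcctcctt

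The motifs searched were TGATGNAA, the core of the element that CHOP and ATF4 share with C/EBP factors, TGACG, the core of the cAMP response element, CCAAT, and the p53 half-site. SESN2 held 2 matches to CCAAT, read as ATTGG from -151 to -147 and from -86 to -82 relative to the start. PMAIP1 held a match to TGACG, read as CGTCA from -55 to -51. GDF15 and BBC3 each held 1 match to CCAAT outside the printed bases. No match overlapped another, and neither TGATGNAA nor the p53 half-site was found in the 5 windows. Of 35116 promoter windows of that length, 32.0% held CCAAT, 21.2% TGACG, 5.57% the p53 half-site and 3.14% TGATGNAA. A match describes these letters only.

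SESN2 encodes sestrin 2, a leucine sensor that restrains the growth kinase complex mTORC1. The gene (ENSG00000130766.4) lies at chr1:28259527-28282491 on the plus strand of GRCh38, as annotated in GENCODE 29. It had 86.6, 83.0 and 86.2 CPM in MS172 libraries, 166, 164 and 164 CPM in PK9328 libraries and 88.6, 89.98 and 89.9 CPM in DMSO libraries. The PK9328 libraries stood apart at nearly the same height, and the MS172 libraries all lay just below the DMSO libraries. With PK9328 the gene rose 1.84-fold (log2 0.88 ± 0.04 SE, edgeR adjusted p = 4.1e-17), which placed it 130th of 13914 genes by log2 change. With MS172 the log2 change was -0.07 (95% interval -0.15 to 0.01, edgeR adjusted p = 0.17). Its direct difference was the largest of the 7, with MS172 lower than PK9328 by a log2 change of -0.95 ± 0.04 (SE, edgeR adjusted p = 1.1e-18). Among the paralogs, SESN1 averaged 5.49, 6.45 and 6.76 CPM with MS172, PK9328 and DMSO and was called in no comparison, and SESN3 was below the filter. Of the 8 GATOR subunits listed as partners (MIOS, WDR24, WDR59, SEH1L, SEC13, DEPDC5, NPRL2 and NPRL3), none was called with PK9328. SEC13 rose with MS172 (log2 0.23). SEH1L was called higher with MS172 (log2 0.20; 0.08 and not called with length-scaled TPM). MIOS was called lower with MS172 (log2 -0.19, edgeR adjusted p = 0.028), a call that ended under 6 of 17 alternatives, among them without MS172 replicate 1 or 3 and without DMSO replicate 2 or 3 (-0.18 to -0.15).

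GDF15 encodes a secreted cytokine of the TGF-β superfamily that acts through the brainstem receptor GFRAL and that many stresses raise. The gene (ENSG00000130513.6) lies at chr19:18374731-18389176 on the plus strand. It had 324, 336 and 319.5 CPM in MS172 libraries, 262, 270.2 and 270.1 CPM in PK9328 libraries and 158, 156 and 167 CPM in DMSO libraries. No library of one group reached the range of another, and GDF15 was the only member higher with MS172 than with PK9328. It rose 2.04-fold with MS172 (log2 1.03 ± 0.04 SE, edgeR adjusted p = 1.8e-19) and 1.67-fold with PK9328 (log2 0.74 ± 0.04 SE, edgeR adjusted p = 1.7e-15). Between the compounds MS172 was higher by a log2 change of 0.29 ± 0.04 (SE, edgeR adjusted p = 1.0e-07). GFRAL itself was listed at 0 in all 9 libraries.

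BBC3 encodes PUMA, a BH3-only protein that neutralises anti-apoptotic BCL2 proteins and is a mediator of p53-driven apoptosis. The gene (ENSG00000105327.17) lies at chr19:47220822-47232766 on the minus strand. It had 37.9, 38.3 and 38.3 CPM in MS172 libraries, 48.5, 45.6 and 47.7 CPM in PK9328 libraries and 29.1, 27.8 and 29.3 CPM in DMSO libraries. The 3 groups did not overlap, and MS172 libraries lay between the others. The gene rose with MS172 (log2 0.41 ± 0.05 SE, edgeR adjusted p = 5.7e-07) and with PK9328 (log2 0.72 ± 0.05 SE, edgeR adjusted p = 1.4e-11). MS172 was lower than PK9328 by a log2 change of -0.31 ± 0.05 (SE, edgeR adjusted p = 1.1e-05), a call that ended with the fragment length covariate (-0.30, edgeR adjusted p = 0.058).

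PMAIP1 encodes NOXA, a BH3-only protein that binds MCL1. The gene (ENSG00000141682.11) lies at chr18:59899948-59904306 on the plus strand and was the least abundant of the 7, with 124 to 259 estimated reads per library. It had 6.41, 5.64 and 5.42 CPM in MS172 libraries, 8.52, 8.85 and 8.004 CPM in PK9328 libraries and 4.81, 7.08 and 5.79 CPM in DMSO libraries. The PK9328 libraries were the highest 3, and the MS172 libraries fell within the wide DMSO range. PMAIP1 rose with PK9328 (log2 0.52 ± 0.12 SE, edgeR adjusted p = 0.0038). This call ended with the fragment length covariate (0.35, edgeR adjusted p = 0.62) and with length-scaled TPM (0.50, edgeR adjusted p = 0.060). It also ended without DMSO replicate 1 (0.39, edgeR adjusted p = 0.054). With MS172 its log2 change was -0.02 (95% interval -0.29 to 0.25, edgeR adjusted p = 0.92). MS172 was lower than PK9328 by a log2 change of -0.54 ± 0.13 (SE, edgeR adjusted p = 0.00072), which the covariate also ended (-0.37, edgeR adjusted p = 0.35).

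Among genes that act beside PUMA and NOXA, BCL2L1, which encodes the anti-apoptotic BCL-XL, rose with MS172 (log2 0.37), while MCL1 and BCL2 were called in no comparison. With PK9328 its log2 change was 0.12 (edgeR adjusted p = 0.042), a call that ended under 13 of 17 alternatives, among them the covariate (0.05, edgeR adjusted p = 0.85), DESeq2 (adjusted p = 0.076) and the leaving out of each DMSO library, of MS172 replicate 1 or 2 and of PK9328 replicate 2 or 3 (0.09 to 0.13). The pore-forming BAX and BAK1 rose with MS172 (log2 0.17 and 0.23) and were not called with PK9328 (log2 -0.02 and 0.10). Of the other BH3-only genes, BAD rose with MS172 (log2 0.25), except without DMSO replicate 2 (0.22, edgeR adjusted p = 0.051). HRK had a log2 change of 0.56 with PK9328 (edgeR adjusted p = 0.049), a call that ended under 10 of 17 alternatives, among them the covariate (0.12, edgeR adjusted p = 0.94), DESeq2 (adjusted p = 0.097) and the leaving out of any PK9328 library, MS172 replicate 2 or DMSO replicate 1 or 3 (0.38 to 0.62). BMF and BIK were called in no comparison.

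TNFRSF10B encodes DR5, a death receptor for the ligand TRAIL and a known CHOP target. The gene (ENSG00000120889.12) lies at chr8:23020133-23069179 on the minus strand, and its exons share 67 bases with the opposite-strand gene RHOBTB2, which averaged 586.5 reads per library. Whether counting used the strand is not given in the sources used here. TNFRSF10B had 136, 139 and 128 CPM in MS172 libraries, 137, 141 and 137 CPM in PK9328 libraries and 106, 112 and 114 CPM in DMSO libraries. Both compounds put every library above the DMSO range and overlapped each other. It rose with MS172 (log2 0.28 ± 0.04 SE, edgeR adjusted p = 3.0e-06) and with PK9328 (log2 0.32 ± 0.04 SE, edgeR adjusted p = 1.0e-06). The PK9328 call ended with the fragment length covariate (0.28, edgeR adjusted p = 0.079). Between the compounds the log2 change was -0.04, with a 95% interval of -0.12 to 0.04 (edgeR adjusted p = 0.44), which does not show that they act alike.

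Other parts of the death receptor route did not follow DR5. CASP8, the initiator caspase of the receptor complex, averaged 36.5 CPM with MS172, 59.0 CPM with PK9328 and 55.3 CPM with DMSO, and it fell with MS172 (log2 -0.60, edgeR adjusted p = 2.6e-10). CFLAR, which encodes the caspase-8 inhibitor cFLIP, also fell with MS172 (log2 -0.43, edgeR adjusted p = 8.8e-09), and neither gene was called with PK9328. TNFRSF10A, the gene of the related receptor DR4, and the decoy receptor gene TNFRSF10D were not called against DMSO with either compound, and TRAIL's own gene TNFSF10 was below the filter.

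GADD45A encodes a small stress protein that binds PCNA and the kinase MAP3K4. The gene (ENSG00000116717.12) lies at chr1:67685061-67688338 on the plus strand. It had 90.1, 93.7 and 94.3 CPM in MS172 libraries, 153, 143 and 135 CPM in PK9328 libraries and 82.7, 87.6 and 90.6 CPM in DMSO libraries. PK9328 libraries lay above all others, and MS172 libraries overlapped the top of the DMSO range. The gene rose with PK9328 (log2 0.72 ± 0.04 SE, edgeR adjusted p = 5.1e-13). With MS172 the log2 change was 0.09 (95% interval 0.00 to 0.19, edgeR adjusted p = 0.12), and MS172 was lower than PK9328 by -0.63 ± 0.04 (log2, SE, edgeR adjusted p = 2.0e-12). Its paralog GADD45B fell with MS172 (log2 -0.86, edgeR adjusted p = 7.6e-11) and GADD45G was below the filter. With PK9328 GADD45B had a log2 change of 0.19 (edgeR adjusted p = 0.034), a call that ended under 7 of 17 alternatives, among them the covariate (0.12, edgeR adjusted p = 0.80), DESeq2 (adjusted p = 0.089) and the leaving out of PK9328 replicate 1 or 3 or DMSO replicate 1 or 2 (0.15 to 0.21). MAP3K4 fell with MS172 (log2 -0.23, edgeR adjusted p = 0.0048). That call ended with length-scaled TPM (-0.22, edgeR adjusted p = 0.059) and without MS172 replicate 2 (-0.18, edgeR adjusted p = 0.052).

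CDKN1A encodes p21, the cyclin-dependent kinase inhibitor through which p53 halts the cell cycle. The gene (ENSG00000124762.13) lies at chr6:36676460-36687339 on the plus strand. It had 19.1, 21.7 and 20.1 CPM in MS172 libraries, 21.5, 24.6 and 24.6 CPM in PK9328 libraries and 15.5, 12.8 and 15.9 CPM in DMSO libraries. Both compounds stood above DMSO in every library, and PK9328 replicate 1 fell inside the MS172 range. CDKN1A rose with MS172 (log2 0.47 ± 0.08 SE, edgeR adjusted p = 6.8e-05) and with PK9328 (log2 0.68 ± 0.08 SE, edgeR adjusted p = 5.5e-07). The compounds differed narrowly, with MS172 lower by a log2 change of -0.21 ± 0.08 (SE, edgeR adjusted p = 0.026). That call ended under 7 of 17 alternatives. Among them were DESeq2 (adjusted p = 0.077), the fragment length covariate (edgeR adjusted p = 0.25) and length-scaled TPM (edgeR adjusted p = 0.078). It also ended without MS172 replicate 1 (edgeR adjusted p = 0.13) or 3 (0.068), or PK9328 replicate 2 (0.10) or 3 (0.091).

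Relatives of p21 moved otherwise. CDKN1C (p57) rose with MS172 (log2 0.59, edgeR adjusted p = 2.2e-10) and had a log2 change of 0.01 with PK9328 (edgeR adjusted p = 0.96). CDKN1B (p27) rose with PK9328 (log2 0.20, edgeR adjusted p = 0.00045), a call that ended with the covariate (0.12, edgeR adjusted p = 0.58), and had a log2 change of 0.05 with MS172 (edgeR adjusted p = 0.34). PCNA, the replication clamp that p21 and GADD45A bind, rose with MS172 (log2 0.19) and fell with PK9328 (log2 -0.28; with the covariate -0.29, edgeR adjusted p = 0.072), and CCND1 fell with PK9328 (log2 -0.38).

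**Figure D2:**
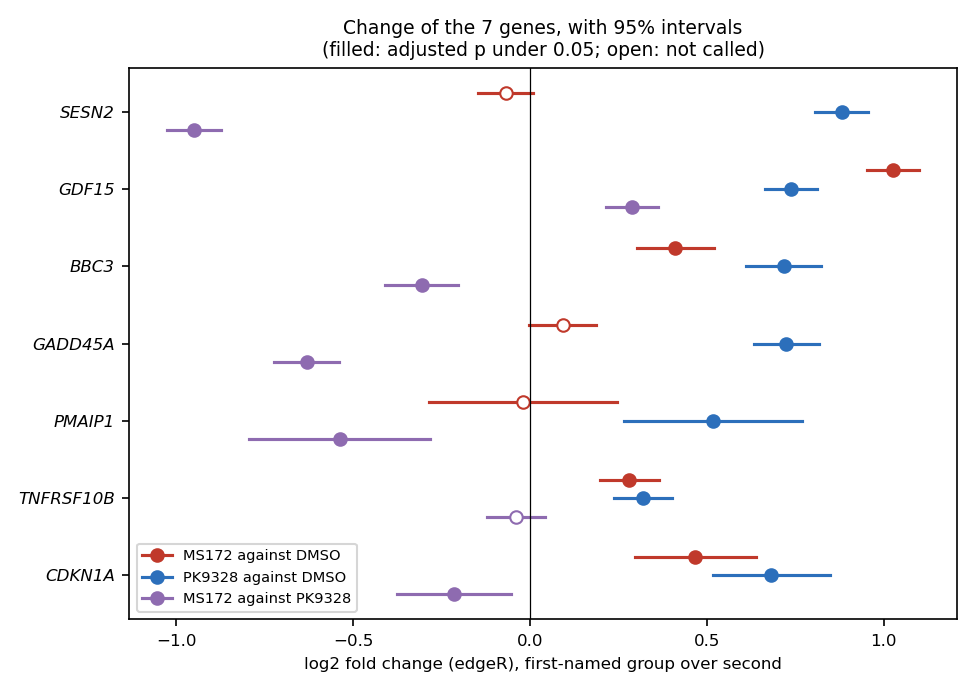
Log2 fold change of each gene (horizontal axis) with its 95% interval, genes running down the page, for MS172 against DMSO, PK9328 against DMSO and MS172 against PK9328. Filled points passed the adjusted p threshold of 0.05; SESN2, GADD45A and PMAIP1 are not called with MS172, and GDF15 alone lies above 0 in the direct comparison.

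Compared per length, in TPM (transcripts per 1000000), GDF15 was the most abundant of the 7 in every group, at 380 TPM with MS172, 350 TPM with PK9328 and 208 TPM with DMSO. GADD45A came next, at 83.8 TPM with MS172, 147 TPM with PK9328 and 87.7 TPM with DMSO, and CDKN1A and PMAIP1 came last. TPM carries no TMM scaling, and in CPM GADD45A had the other order, 92.7 with MS172 and 86.9 with DMSO. SESN2 took the third place with PK9328 (63.4 TPM), the fifth with MS172 (28.6 TPM) and the fourth with DMSO (33.4 TPM). In no group did the ranges of neighbouring genes in the order overlap.

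Single transcripts were tested as well. They do not resolve every gene, since no TNFRSF10B transcript was called with MS172, though the gene was. The 7 genes have 36 annotated transcripts, of which 8 were at 0 in all libraries and 15 averaged at least 0.5 TPM and were all tested. In SESN2, GDF15, GADD45A, PMAIP1 and CDKN1A a single coding transcript made up at least 94.2% of the gene's TPM in the mean of every group. Of the 15, edgeR called 2 higher with MS172 (background 3.12% of 39248 transcripts) and 0 lower (1.95%), and 5 higher with PK9328 (0.306%) and 0 lower (0.533%). At an unadjusted p under 0.05 edgeR had 3 of the 15 lower with MS172 and 1 with PK9328, and DESeq2 called 0 and 1. Between the compounds 2 were higher (7.37%) and 4 lower (5.11%) with MS172. With the covariate all 5 PK9328 calls ended, at edgeR adjusted p = 0.060 for the transcript of SESN2 up to 0.80 for that of CDKN1A, and between the compounds only SESN2 kept one. The CDKN1A call with PK9328 ended under 12 of 16 alternatives, including the leaving out of each of the 9 libraries (0.57 to 0.76). Of the 4 lower calls between the compounds, that of GADD45A-201 ended under 13 of 16 alternatives. Among them was the leaving out of each of the 9 libraries (-1.01 to -0.80). The error of assigning reads to transcripts is not in this test.

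BBC3 and TNFRSF10B divide among several transcripts. The coding transcript BBC3-202 (1538 bases) had 24.1, 19.1 and 17.9 TPM with MS172, 19.4, 15.8 and 25.9 TPM with PK9328 and 6.496, 3.76 and 8.61 TPM with DMSO. Every treated library was above every DMSO library, and the compounds overlapped. It rose with MS172 (log2 1.83 ± 0.33 SE, edgeR adjusted p = 0.022) and had a log2 change of 1.64 with PK9328 (edgeR adjusted p = 0.076; DESeq2 adjusted p = 2.2e-05; with the covariate 0.73, edgeR adjusted p = 0.96). The MS172 call ended under 5 of 16 alternatives, including without MS172 replicate 1 (1.69, edgeR adjusted p = 0.070), MS172 replicate 2 (1.87, 0.064) or DMSO replicate 1 (1.86, 0.078). Its share of BBC3 TPM was 66.5% ± 9.9 with MS172, 48.8% ± 11.4 with PK9328 and 26.5% ± 10.1 with DMSO (SD, n = 3 each), and that of the coding transcript BBC3-203 was 30.5% ± 10.3 with MS172, 46.7% ± 11.8 with PK9328 and 69.0% ± 10.0 with DMSO. BBC3-203 itself was not called, at log2 -0.66 with MS172 (edgeR adjusted p = 0.23) and -0.85 for MS172 against PK9328 (0.081). The covariate made these calls, at -0.77 (edgeR adjusted p = 0.012) and -2.21 (0.025). DESeq2 also called BBC3-203 lower with MS172 than with PK9328 (adjusted p = 0.0087).

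The coding transcript TNFRSF10B-201 had 21.5, 22.4 and 22.9 TPM with MS172, 33.0, 39.2 and 32.5 TPM with PK9328 and 21.3, 21.7 and 23.4 TPM with DMSO. In deposited TPM, PK9328 libraries stood apart and MS172 libraries lay within the DMSO range. TPM carries no TMM scaling, while the test used TMM-scaled counts, so the 2 need not place libraries alike. It rose with PK9328 (log2 0.59 ± 0.08 SE, edgeR adjusted p = 0.020) and had a log2 change of 0.16 with MS172 (edgeR adjusted p = 0.32). The PK9328 call ended under 8 of 16 alternatives, including the fragment length covariate (0.70, edgeR adjusted p = 0.66), the replicate block (0.59, 0.11) and without MS172 replicate 2 (0.59, 0.052), PK9328 replicate 2 (0.51, 0.050) or 3 (0.63, 0.060), or DMSO replicate 1 (0.57, 0.088) or 2 (0.55, 0.064). The retained-intron transcript TNFRSF10B-208 had 17.2, 17.5 and 14.3 TPM with MS172, 7.78, 2.86 and 6.67 TPM with PK9328 and 10.1, 13.7 and 9.56 TPM with DMSO. In deposited TPM, MS172 libraries were all above, and PK9328 libraries all below, the DMSO libraries. Neither difference from DMSO was called (edgeR adjusted p = 0.297 with MS172 and 0.271 with PK9328). DESeq2 did call TNFRSF10B-208 lower with PK9328 (adjusted p = 0.030). Between the compounds TNFRSF10B-208 was higher with MS172 (log2 1.71 ± 0.34 SE, edgeR adjusted p = 0.015) and TNFRSF10B-201 lower (log2 -0.43 ± 0.08 SE, edgeR adjusted p = 0.0099). With the fragment length covariate neither was called (edgeR adjusted p = 0.29 and 0.24). TNFRSF10B-208 also lost its call with the replicate block (1.74, edgeR adjusted p = 0.052), with no filter (1.73, 0.065) and without MS172 replicate 2 (1.65, 0.051). TNFRSF10B-201 made up 51.0% ± 3.7 of the gene's TPM with MS172, 66.5% ± 6.7 with PK9328 and 53.5% ± 4.0 with DMSO (SD, n = 3 each).

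**Figure D3:**
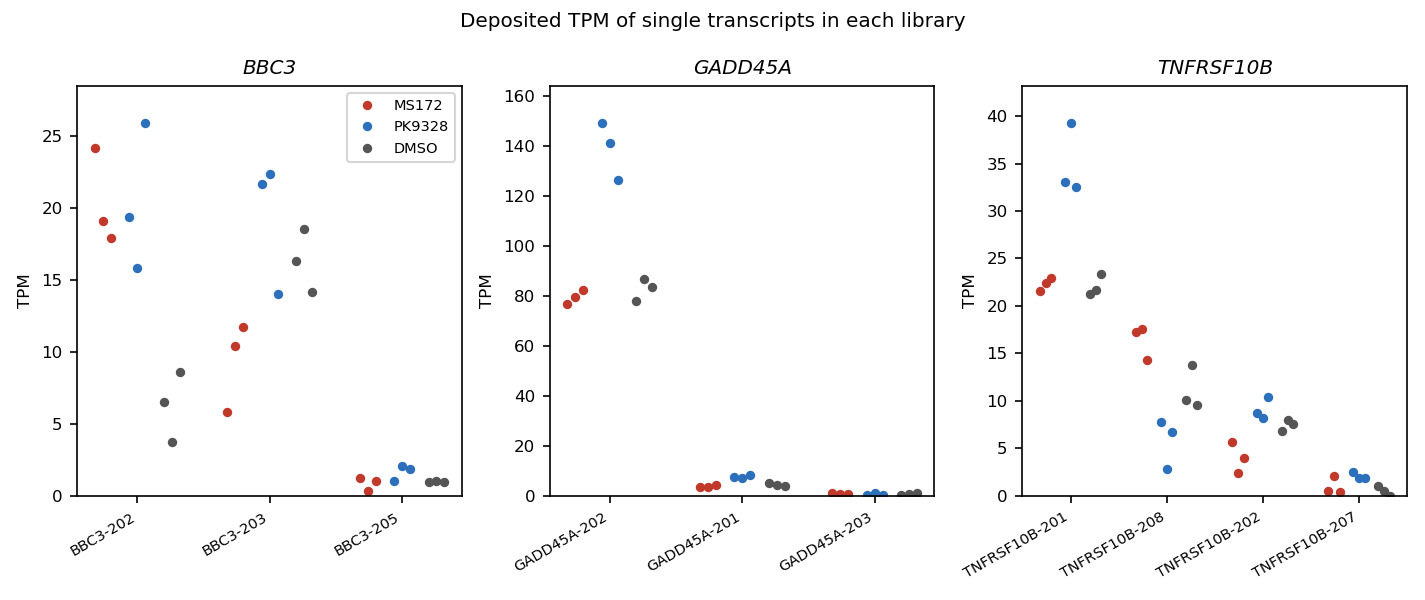
Deposited TPM of the transcripts of BBC3, GADD45A and TNFRSF10B that averaged at least 0.5 TPM, with MS172, PK9328 and DMSO points from left to right above each name; each point is a library. BBC3-202 is lowest with DMSO, and TNFRSF10B-208 is lowest and TNFRSF10B-201 highest with PK9328.

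The factors above these genes were read in the same libraries. ATF4 RNA averaged 371 ± 11 CPM with MS172, 436 ± 11 CPM with PK9328 and 317 ± 10 CPM with DMSO (SD, n = 3 each), and it rose with MS172 (log2 0.22, edgeR adjusted p = 2.0e-05) and with PK9328 (log2 0.46, edgeR adjusted p = 1.7e-10). DDIT3, the CHOP gene, averaged 49.0 CPM with MS172, 138 CPM with PK9328 and 55.6 CPM with DMSO. It rose with PK9328 (log2 1.31, edgeR adjusted p = 1.7e-10). With MS172 the libraries (53.2, 49.7 and 44.0 CPM) overlapped the DMSO libraries (51.8, 58.0 and 57.1 CPM), and the log2 change was -0.18 (edgeR adjusted p = 0.039). That call ended under 7 of 17 alternatives. These were the replicate block (edgeR adjusted p = 0.091), length-scaled TPM (edgeR adjusted p = 0.10) and the leaving out of single libraries. The libraries were MS172 replicate 2 or 3, PK9328 replicate 1 and DMSO replicate 2 or 3 (-0.19 to -0.11). ATF3, a factor downstream of ATF4, rose with PK9328 (log2 1.21). With MS172 ATF3 was called higher (log2 0.22). That call ended without MS172 replicate 1 (0.13, edgeR adjusted p = 0.18) and with length-scaled TPM (0.02, edgeR adjusted p = 0.95). EIF2AK3, the gene of the endoplasmic reticulum stress kinase PERK, rose with MS172 (log2 0.75) and with PK9328 (log2 0.46; with the covariate 0.36, edgeR adjusted p = 0.21). ATF5 rose with MS172 (log2 0.71) and PK9328 (log2 0.50), and XBP1 with MS172 (log2 0.25; 0.12 and not called with length-scaled TPM) and PK9328 (log2 0.49).

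MDM2, a p53 target that feeds back on p53, had log2 changes of 0.01 with MS172 and -0.38 with PK9328, and neither passed the test (edgeR adjusted p = 0.98 with MS172 and 0.11 with PK9328). TP63, a p53 relative that binds many of the same sites, fell with MS172 (log2 -0.30) and rose with PK9328 (log2 0.23; with the covariate 0.20, edgeR adjusted p = 0.24).

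Other genes of each route give the setting for the 7. Of 25 tested ATF4 and CHOP genes outside the 7 members, 12 rose and 4 fell with MS172, and 21 rose and 0 fell with PK9328 (0 at an unadjusted p under 0.05 in edgeR and 0 by DESeq2). Among all genes tested, 17.9% were called higher and 17.2% lower with MS172, and 7.98% higher and 7.48% lower with PK9328. The 4 of 25 that fell with MS172 lie near the share of all genes. The median log2 change of the 25 was 0.10 with MS172 and 0.42 with PK9328. TRIB3, a pseudokinase gene, rose with MS172 (log2 0.52) and with PK9328 (log2 0.76). CHAC1, which encodes a glutathione-degrading enzyme, and PPP1R15A, which encodes the eIF2α phosphatase subunit GADD34, fell with MS172 (log2 -0.62 and -0.60) and rose with PK9328 (log2 0.87 and 0.70). SLC3A2, a transporter subunit gene, rose with PK9328 (log2 0.57) and had a log2 change of -0.08 with MS172 (edgeR adjusted p = 0.091).

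Of 28 tested p53 targets outside ATF4 control, 3 rose and 6 fell with MS172, and 5 rose and 0 fell with PK9328 (2 lower at an unadjusted p under 0.05 in edgeR and 0 by DESeq2). The shares of all genes were 17.9% higher and 17.2% lower with MS172, and 7.98% higher and 7.48% lower with PK9328. The MS172 counts of this list lay near those shares. The median log2 change of the 28 was 0.01 with MS172 and 0.03 with PK9328. Without MS172 replicate 1 the count higher with MS172 was 5 (also 5 with RLE factors and with the replicate block), and without PK9328 replicate 2 the count higher with PK9328 was 3. PLK2 fell with MS172 (log2 -0.34) and had a log2 change of 0.03 with PK9328. AEN and PPM1D rose with PK9328 (0.42 and 0.45), and RPS27L and BAX rose with MS172 (0.36 and 0.17). PPM1D fell with MS172, a call kept under all 17 alternatives (log2 -0.38 to -0.22). With the fragment length covariate, edgeR called 5 of the 7 members and 16 of the 25 ATF4 and CHOP genes higher with PK9328. It called 0 of these 28 (3 at an unadjusted p under 0.05, and DESeq2 without the covariate called 4). Over all genes the covariate also cut the PK9328 calls sharply (counts in the closing section), so 0 of 28 lies near the share of all genes.

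**Figure D4:**
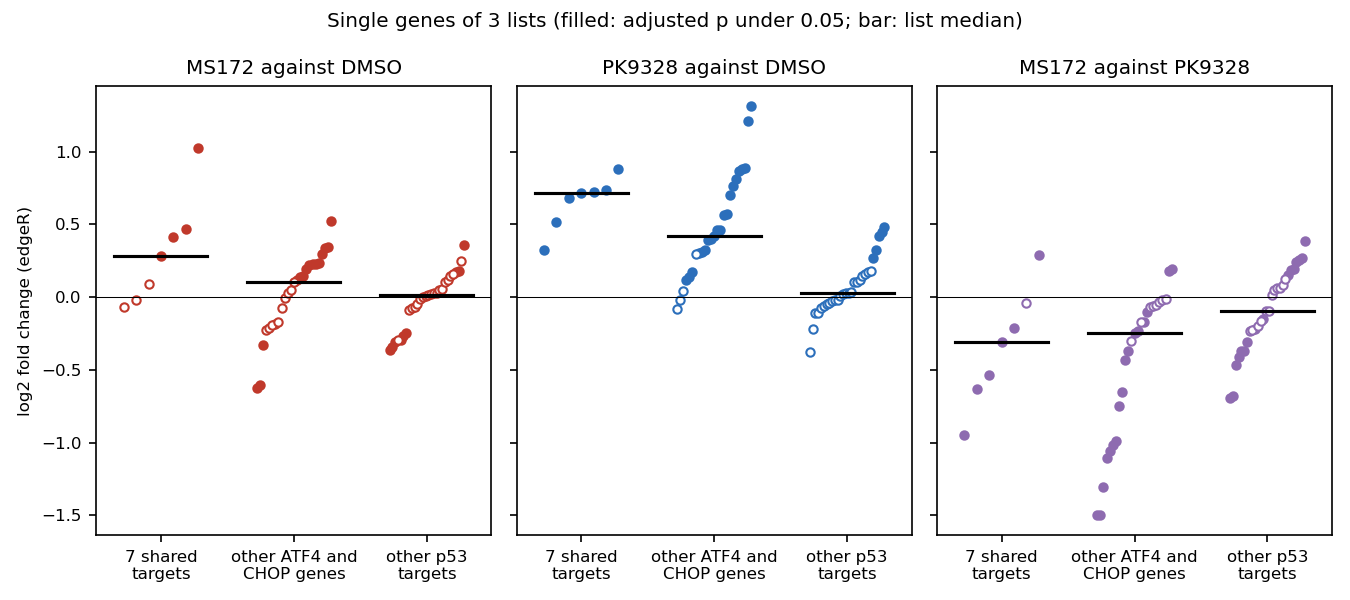
Log2 fold change of each tested gene for the 7 members, the other ATF4 and CHOP genes and the other p53 targets, in MS172 against DMSO, PK9328 against DMSO and MS172 against PK9328; filled points passed the adjusted p threshold of 0.05 and horizontal bars are list medians. With PK9328 the medians are 0.72, 0.42 and 0.03 in that order of lists, and with MS172 they are 0.28, 0.10 and 0.01.

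The mean standardised log2 CPM of the 7 genes over the 9 libraries was compared with 11323 coding genes of at least 1 CPM. The genes most like it by Pearson r were MTHFD2 (0.992), ATF4 (0.988), SLC1A5 (0.985), SLC31A1 (0.973) and CEBPG (0.973). These r values describe 9 libraries in 3 groups and carry no test. Each of the 5 rose with both compounds (SLC31A1 with MS172 except with length-scaled TPM) and was lower with MS172 than with PK9328, a difference that only CEBPG kept with the covariate. This order was set by the choice itself, since the mean of the 7 genes was lowest with DMSO and highest with PK9328. The calls of the 5 are therefore no separate result. MTHFD2 averaged 234 CPM with MS172, 263 CPM with PK9328 and 212 CPM with DMSO, and CEBPG 69.1 CPM with MS172, 89.2 CPM with PK9328 and 60.3 CPM with DMSO.

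**Figure D5:**
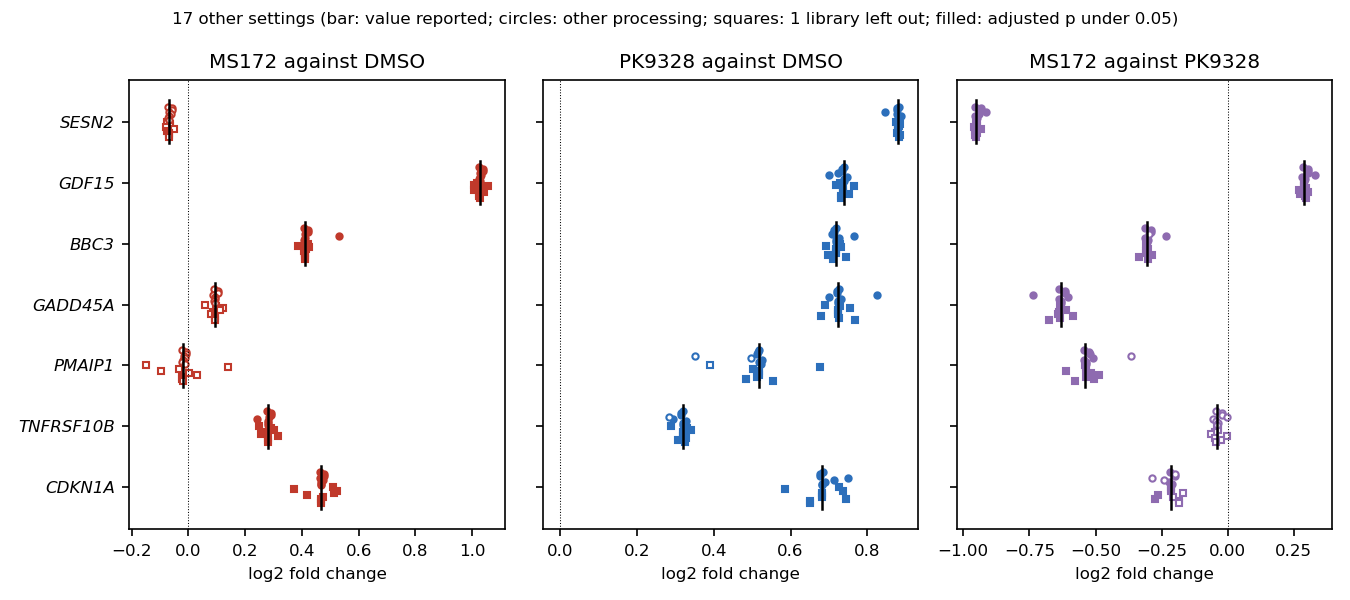
Log2 fold change of each gene under every alternative analysis, for each comparison; bars are the values reported, circles other processing and squares the leaving out of 1 library, and filled marks passed the adjusted p threshold of 0.05. SESN2, GDF15, BBC3, GADD45A and CDKN1A stay called with PK9328 under all 17 alternatives, and PMAIP1 and TNFRSF10B do not.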

How the data were processed

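RNA was measured in 9 libraries, grouped by their titles. For each of 197653 transcripts the deposited tables list an estimated count, a TPM value and 2 lengths, per the file headers. TPM had been scaled by the authors to transcript length and a library total of 1000000, per the file headers. FastQC 0.11.8 and hg38 come from the submitters' processing notes; the quantification program is not given in the sources used here.

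Estimated counts of the 193505 transcripts matched to GENCODE 29 were summed for 56865 genes and rounded; unmatched transcripts held 0.356% to 0.382% of reads. Genes and single transcripts were tested with edgeR 4.0.16 (R 4.3.3; quasi-likelihood, robust, TMM, filterByExpr), all 9 libraries in a fit with 6 residual degrees of freedom, with Benjamini-Hochberg adjustment over all features tested. The common biological coefficient of variation was 0.044. Intervals are 95% and cover the spread between libraries. Fragment length was estimated as length minus effective length of long transcripts. Alternatives used DESeq2 1.42.0 (size factors and test) or kept the edgeR test with other settings. The settings were length-scaled TPM, RLE factors, other filters, a fragment length covariate, a replicate block, the compared groups only and leaving out each library.

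The 7 genes, the other lists and the tests were chosen with earlier results of these data known. Text names were set by rule: all 7 genes, their transcripts of at least 0.5 TPM on average, ATF4, DDIT3, ATF3 and MDM2, and up to 6 genes per list with the smallest p; paralogs and partners could be named, and not all are. Some transcripts so named stand in a plot or the closing section only, and 1 gene so named is not reported here. The 5 genes most like the 7 were taken by Pearson r of log2 (CPM + 1). Only 1 pair of compounds was compared. In a simulated data set the edgeR test made more false calls than its nominal rate, so calls with an adjusted p near 0.05 are less sure than they read.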

Additional observations from a re-analysis of the deposited data

How the results depend on the processing

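Each member and comparison was recomputed under 17 alternatives. SESN2, GDF15, BBC3, GADD45A and CDKN1A stayed called with PK9328, and GDF15, BBC3, TNFRSF10B and CDKN1A with MS172, under all of them. Members higher with MS172 stayed at 4 of 7; with PK9328 they numbered 5 with the fragment length covariate, 6 with length-scaled TPM and 6 to 7 without 1 library. Between the compounds, 2 members were lower with MS172 under the covariate (SESN2 and GADD45A), and 4 to 5 without 1 library, against 5. The cause of lost calls was not tested.

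Genes called were 4884 with MS172, 2151 with PK9328 and 6641 between the compounds. With the covariate the counts were 175 for PK9328 and 2474 between the compounds, of 13914 genes tested, and length-scaled TPM gave 1080 for PK9328. Without 1 library they ran from 3874 to 4897, from 1384 (without DMSO replicate 1; 1400 without PK9328 replicate 2) to 2215, and from 5651 to 6770. Transcripts called were 1989, 329 and 4895. DESeq2 gave 5407, 2537 and 8638, and only the groups compared gave 1200 with MS172 and 37 with PK9328. With the covariate edgeR called 116 transcripts between the compounds and 0 with PK9328, where 2226 had an unadjusted p under 0.05. Without 1 library the ranges were 970 to 1642, 72 to 207 and 3033 to 4517. Replicate numbers did not pair the libraries (correlations of deviations -0.057 to 0.017 over 9 pairs; 1 of 9 libraries correlated best with its own number). The replicate block gave 803 and 22 transcripts against DMSO, with MS172 and PK9328, and 3302 between the compounds. It gave 4597, 1884 and 6405 genes, and 4, 7, and 1 higher and 5 lower members.

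The signs that reversed belong to values not called in the analysis reported. Without 1 library, the log2 change with MS172 ran from -0.15 to 0.14 for PMAIP1 and for PMAIP1-202, -0.18 to 0.046 for GADD45A-201, -0.26 to 0.20 for GDF15-203, -0.40 to 0.38 for BBC3-205 and -0.17 to 2.09 for TNFRSF10B-207, and with PK9328 from -1.23 to 0.10 for GADD45A-203. With the covariate BBC3-205 was at -0.28 with PK9328 and 0.23 between the compounds, and TNFRSF10B-202 at -0.86 with PK9328 and 0.081 between the compounds. Between the compounds TNFRSF10B-202 was called lower with MS172 by DESeq2 (adjusted p = 0.0033), with the 1 CPM filter (edgeR, 0.044) and without MS172 replicate 1 (-1.34, edgeR, 0.019). PMAIP1 had the fewest reads of the 7 genes, 124 to 259 per library. No alternative moved the median of all genes by more than 0.1 (log2).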
